A study of Homo sapiens with 21 samples.

Results

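The response to neocarzinostatin (NCS) at 8 h was described as the difference between 3 RNA-seq libraries of cells treated for 8 h and 3 libraries of untreated cells. These are 6 of the 21 libraries, and all 19694 genes whose values varied were compared. The cells were hTERT-HPNE, a nontransformed human pancreatic line immortalized with telomerase. NCS was given at 400 ng/ml with a change to fresh medium containing EGF, and RNA was taken 4, 8 or 24 h later. The untreated cells were harvested at 0 h, so 8 h of NCS and 8 h in fresh medium cannot be told apart in the comparison with them. Cells given 300 μM H2O2 in the same way and harvested at 8 h share the medium change and the time, and served as a direct comparison. Each group held 3 biological replicates. The deposited values are regularized log2 values (rlog), in which differences of genes with few reads are shrunken toward 0 and lengths of genes are not corrected for. They give no counts, and the depth of the libraries is therefore unknown.

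NCS is a radiomimetic enediyne antibiotic that cuts both strands of DNA. Double-strand breaks activate the kinase ATM, which stabilizes the transcription factor p53. p53 raises genes of cell cycle arrest, repair and death, among them the inhibitor of cyclin-dependent kinases p21 (CDKN1A), and many genes of G2 and mitosis are repressed through p21 and the DREAM complex, which binds the cell cycle genes homology region (CHR) of their promoters.

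The 6 libraries separated by group. Over all genes, NCS libraries lay a Euclidean distance of 9.9 to 10.7 from each other, untreated libraries 10.6 to 11.2, and libraries of different groups 24.1 to 25.1. Of the markers chosen for the HPNE line, the levels of TERT and vimentin (VIM) are given here. TERT, which the line carries as a transgene, lay between 14.05 and 14.37, and VIM between 17.02 and 17.09. Among duct markers, KRT19 (0.58 to 0.66), EPCAM (-1.77 to -1.76) and CFTR (-1.34) were low, in a table whose lowest value was -2.31. Others were higher, with KRT18 between 11.60 and 11.73, KRT7 between 6.607 and 7.004, MUC1 between 6.01 and 6.22 and SOX9 between 5.78 and 6.07, and none of these passed the test. The test compares NCS with untreated cells, so whether a marker is expressed is read from its level. The 12 measured markers of acinar, endocrine and endothelial cells lay between -2.313 and 3.161, and none passed the test. Fibroblast markers were high, with COL1A1 at 17.94 or above and COL1A2 at 16.4 or above. DCN lay between 14.85 and 14.95, PDGFRB between 12.21 and 12.68, LUM between 10.43 and 10.59 and THY1 between 9.169 and 9.383. Among 4 leukocyte markers CD68, which many cell types express, rose (10.07 to 10.19 against 9.93 to 10.00, a difference of 0.15, adjusted p = 0.0129). Its call was lost without the first untreated or the second NCS library. The defining marker PTPRC lay between 0.89 and 0.98 and did not pass (adjusted p = 0.9998). One library outside the comparison stood apart: the second H2O2 replicate at 8 h lay no more than 21.6 from the NCS libraries, against 27.6 to 28.4 for the others. It also lay nearer to the untreated libraries, at 24.4 to 24.8 against 34.0 to 34.5. The direct comparison with H2O2 is therefore given with and without it. The spread of each gene was estimated over all 21 libraries, so this library also enters the SE and adjusted p-values of the other comparisons. Those are given with it. Against untreated cells, 67 genes passed the limit of 1 in the main fit and 67 with only the groups compared, which leaves it out.

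Of the genes tested, 13 were higher after NCS and 54 lower by more than 1 on the log2 scale at 8 h (limma, Benjamini-Hochberg adjusted p-value below 0.05 over 19694 genes). These are 0.066% and 0.274% of the genes tested, 0.34% together. Without the limit on size, 2074 genes (10.5%) were higher and 2629 (13.3%) lower, 23.9% together, and these are the shares against which the members of each gene list are read. Among genes with a mean value of at least 5 the shares were 16.7% and 21.9%. The median difference over all genes was -4.08e-05. TP53INP1 (1.01) was the last gene above the limit and PHLDA3 (0.97) the first below it; among falls these were ANLN (-1.007) and RACGAP1 (-0.9964).

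**Figure D1:**
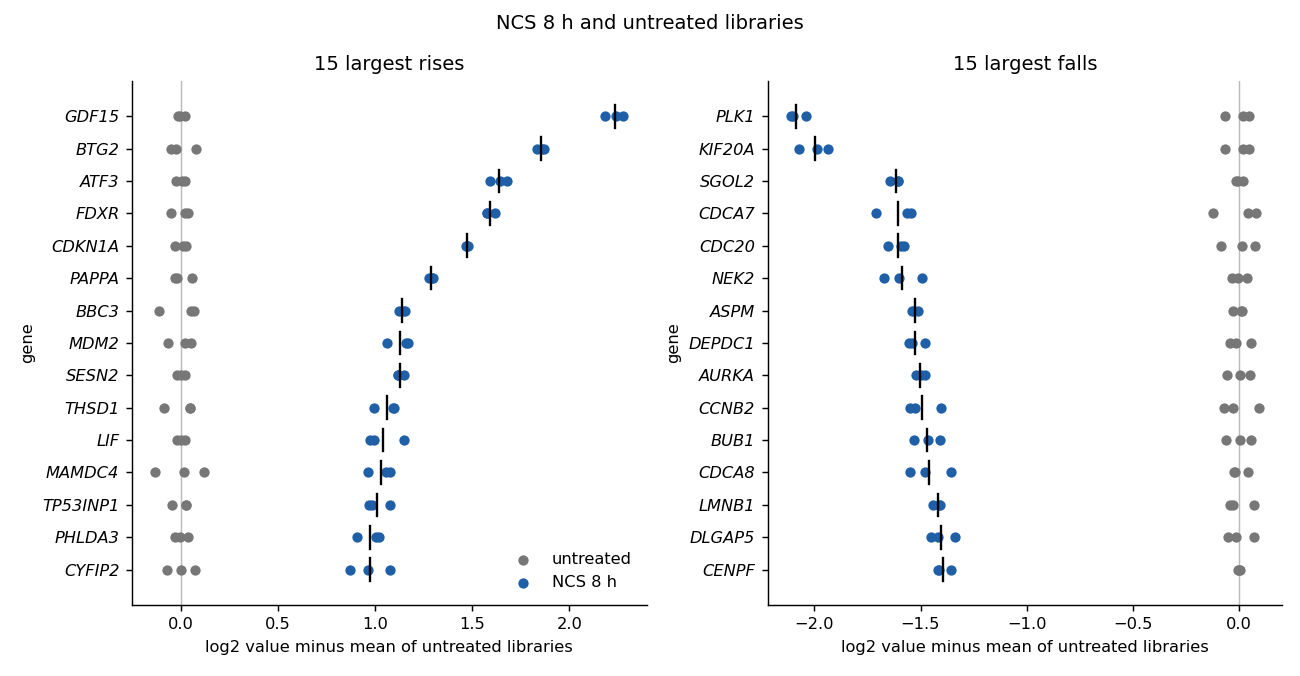
Log2 value of each library minus the mean of the 3 untreated libraries (x axis) for the 15 genes that rose most and the 15 that fell most at 8 h of NCS (y axis). Gray points are untreated libraries, blue points NCS libraries and bars their mean; the genes were taken among those whose groups do not overlap, and GDF15 (2.23) and PLK1 (-2.08) lie at the ends.

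The largest rise was that of GDF15, a secreted cytokine of the TGF-beta superfamily. Its values were 11.45, 11.41 and 11.35 in NCS libraries and 9.16, 9.16 and 9.19 in untreated libraries, a difference of 2.23 (SE 0.11, adjusted p = 6.58e-11). All NCS libraries lay above all untreated ones, and a two-sided exact permutation test over the 6 libraries gave p = 0.1, the smallest value that 3 against 3 can give, here and for every single gene below whose groups are separate. BTG2, an antiproliferative transcriptional cofactor, followed with 9.25, 9.23 and 9.26 against 7.47, 7.34 and 7.37 (1.85, SE 0.068, adjusted p = 2.72e-12). CDKN1A rose from 14.13, 14.14 and 14.08 to 15.59, 15.59 and 15.59, a difference of 1.47 (SE 0.074, adjusted p = 7.82e-11). In each of these genes the lowest NCS library lay above the highest untreated library. Other rises over 1 were the stress transcription factor ATF3 (1.64), PAPPA, a protease of insulin-like growth factor binding proteins (1.29), THSD1 (1.06), the cytokine LIF (1.04) and MAMDC4 (1.03). Of the 13 genes, 9 are in the lists of p53 targets, and PAPPA, THSD1 and MAMDC4 are in none of the lists.

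Targets of p53 rose in each functional class. Of 70 targets in 6 lists, 51 were higher (background 10.5%) and 3 lower (13.3%), with a median difference of 0.421, and in 58 the 2 groups did not overlap (33.8% of all genes). Among the falls were BTG1 (-0.17) and FANCC (-0.43), and the call of BTG1 was lost without untreated replicate 1 or 3 or NCS replicate 2 or 3.

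Among genes of the p53 feedback, 4 of 8 rose and 1 fell. MDM2, the ubiquitin ligase that degrades p53, was 12.87, 12.86 and 12.76 with NCS and 11.72, 11.75 and 11.63 without (1.13, SE 0.057, adjusted p = 7.9e-11). The phosphatase PPM1D, which ends damage signaling, rose by 0.51 (adjusted p = 7.36e-06), the cyclin CCNG1 by 0.39 and TP53INP1 by 1.01. MDM4, the partner of MDM2, had a difference of 0.07 that did not pass (adjusted p = 0.541). In the arrest class, 9 of 10 rose, with a median of 0.598. After BTG2 and CDKN1A these were led by the polo-like kinases PLK3 (0.92) and PLK2 (0.92) and by GADD45A (0.73).

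Death targets rose in 14 of 19 cases, none fell, and the median was 0.522. FDXR, a mitochondrial reductase, had values of 10.77, 10.73 and 10.73 against 9.10, 9.17 and 9.18 (1.59, SE 0.071, adjusted p = 2.22e-11). BBC3 (PUMA), a BH3-only protein, had 8.55, 8.53 and 8.56 against 7.29, 7.46 and 7.47 (1.14, SE 0.065, adjusted p = 3.61e-10). The death receptors FAS (0.90), TNFRSF10A (0.81) and TNFRSF10B (0.78) rose less, and BAX, the pore-forming effector, by 0.39. PMAIP1 (NOXA) rose by 0.40 (adjusted p = 0.000157), while APAF1 (-0.07, adjusted p = 0.159) and PERP (-0.05, adjusted p = 0.141) did not pass.

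Repair targets rose in 6 of 7 cases. The damage sensors of nucleotide excision repair XPC (0.65) and DDB2 (0.51), the ribonucleotide reductase subunit RRM2B (0.62) and the translesion polymerase POLH (0.33) were among them. Metabolic targets rose in 8 of 12 cases, led by the sestrin SESN2 (10.98, 11.02 and 10.99 against 9.87, 9.89 and 9.85, 1.13, SE 0.067, adjusted p = 6.1e-10), the ceramidase ACER2 (0.95), SESN1 (0.87) and C12orf5, the fructose bisphosphatase TIGAR (0.74). Of 14 secreted and surface targets 10 rose; beyond GDF15 and LIF these included the receptor EDA2R (0.86) and the growth factor CSF1 (0.41).

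**Figure D2:**
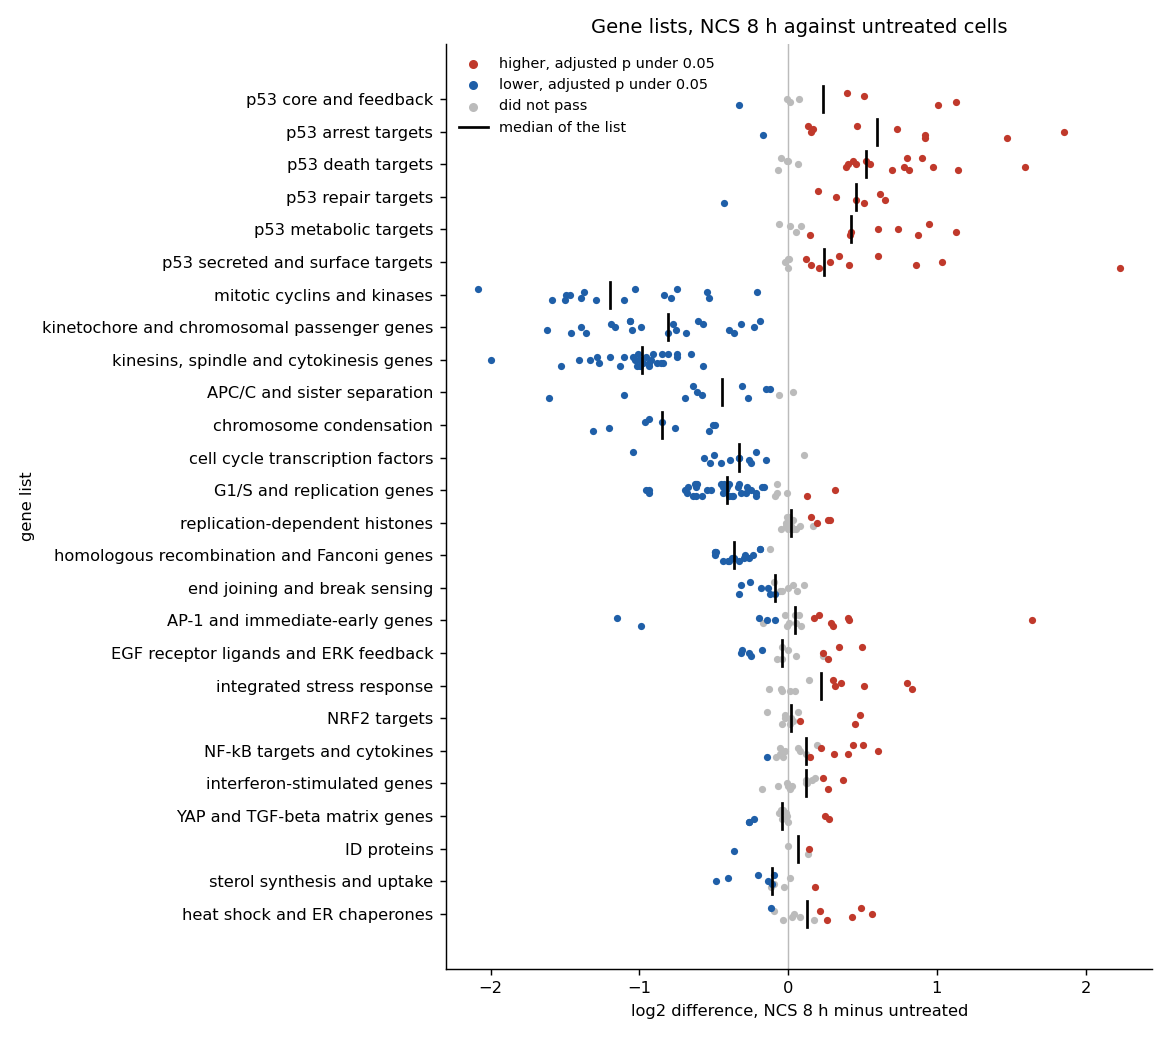
Log2 difference between NCS 8 h and untreated cells (x axis) for every measured member of 26 gene lists (y axis). Red and blue points passed in either direction, gray points did not and bars are medians, which lie above 0 in the 6 lists of p53 targets and below 0 in the lists of mitotic, replication and recombination genes.

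Genes of G2 and mitosis made up 36 of the 54 falls over 1. Of 88 genes in 5 lists, 86 fell (background 13.3%), and none was higher (10.5%), with a median of -0.933. The exceptions were 2 subunits of the anaphase-promoting complex, ANAPC5 (-0.06, adjusted p = 0.241) and CDC16 (0.04, adjusted p = 0.544). In 86 of the 88 genes the libraries of the groups did not overlap (33.8% of all genes). In RNA of whole cultures, fewer cells in G2 and mitosis and less RNA per such cell cannot be told apart.

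All 16 mitotic cyclins and kinases fell, with a median of -1.20, the lowest of the 5 lists. PLK1, the kinase that drives entry into mitosis, fell most of all genes, to 9.67, 9.66 and 9.73 from 11.70, 11.79 and 11.82 (-2.08, SE 0.11, adjusted p = 7.82e-11). NEK2, a kinase of centrosome separation, fell to 8.03, 8.14 and 7.96 from 9.60, 9.63 and 9.67, and AURKA, a kinase of the spindle poles, to 9.49, 9.46 and 9.44 from 10.91, 10.97 and 11.02. The B-type cyclins CCNB2 (-1.49, SE 0.081, adjusted p = 2.16e-10) and CCNB1 (-1.39) and the checkpoint kinase BUB1 (-1.47) fell as well, and no NCS library of these genes overlapped the untreated ones. Their kinase partner CDK1 (-0.54) also fell, as did its inhibitory kinases WEE1 (-0.83) and PKMYT1 (-0.21, adjusted p = 0.0107).

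All 30 kinesins, spindle and cytokinesis genes fell, from -2.00 to -0.57 with a median of -0.984. KIF20A, the kinesin of cytokinesis, was 9.31, 9.40 and 9.45 after NCS and 11.32, 11.43 and 11.40 in untreated cells (-2.00, SE 0.088, adjusted p = 1.91e-11). ASPM, a spindle pole protein, fell from 11.40, 11.41 and 11.37 to 9.86, 9.85 and 9.88, and DLGAP5, a spindle assembly factor, fell with it (-1.40). Of 21 kinetochore and passenger genes all fell (median -0.806), led by SGOL2, a protector of centromeric cohesion (8.13, 8.13 and 8.09 against 9.72, 9.75 and 9.73), the passenger protein CDCA8 (-1.46) and CENPF (-1.40). In the list of sister separation 10 of 12 fell. Its largest fall was that of CDC20, the activator of the anaphase-promoting complex, to 10.06, 10.13 and 10.14 from 11.63, 11.73 and 11.79 (-1.61, SE 0.097, adjusted p = 7.93e-10), and the securin PTTG1 fell too (-0.64). All 9 condensation genes fell (median -0.849), among them topoisomerase TOP2A (-1.31) and MKI67 (-1.20), the proliferation marker Ki-67.

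Of the 54 falls over 1, 16 are in none of the lists. The largest of these were CDCA7, a chromatin protein bound by MYC (6.34, 6.51 and 6.49 against 7.93, 8.13 and 8.09, -1.61, SE 0.081, adjusted p = 7.82e-11), DEPDC1 (-1.52), the nuclear lamin LMNB1 (-1.42) and CDCA3, a cofactor of mitotic entry (-1.37). EGR1, a growth factor-induced transcription factor, was the only immediate-early gene among the falls over 1, at 10.24, 10.03 and 10.06 against 11.21, 11.43 and 11.13 (-1.15, SE 0.079, adjusted p = 3.86e-09).

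The promoters of the genes that fell were read for the CHR, spelled TTTGAA or TTCGAA, for the CCAAT box, the site of the factor NF-Y, and for E2F sites, spelled TTTCCCGC, TTTCGCGC, TTTGCCGC or TTTGGCGC, each on both strands. The E2F motif was added after the data were seen. Promoters were taken from RefSeq (GRCh38.p14, from 250 bases before to 50 bases after the start) for 13964 of the 19694 genes, of which 12579 matched by the symbol itself and the rest by an older symbol. The submitters' processing notes name another build (hg19), so positions serve only the sequences. The 150 bases before the start are shown 5′ to 3′ for the 5 genes with the largest falls that hold a CHR there and for KIF20A, the gene with the largest fall among those that hold none. UHRF1 and RFC3 are the G1/S and replication genes with the largest falls that hold an E2F site there, and GDF15 and BTG2 rose most. Capitals mark matches of the CHR, the CCAAT box and the E2F site on either strand, so that a CHR can also read TTCAAA and a CCAAT box ATTGG.
PLK1 (chr16:23678739-23678888, plus strand): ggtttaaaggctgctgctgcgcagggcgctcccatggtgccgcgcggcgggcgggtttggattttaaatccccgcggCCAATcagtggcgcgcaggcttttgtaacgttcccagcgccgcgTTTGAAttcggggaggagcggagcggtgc
CDC20 (chr1:43358831-43358980, plus strand): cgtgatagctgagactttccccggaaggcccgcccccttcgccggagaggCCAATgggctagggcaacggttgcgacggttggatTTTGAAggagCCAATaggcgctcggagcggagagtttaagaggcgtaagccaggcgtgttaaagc
ASPM (chr1:197146670-197146819, minus strand): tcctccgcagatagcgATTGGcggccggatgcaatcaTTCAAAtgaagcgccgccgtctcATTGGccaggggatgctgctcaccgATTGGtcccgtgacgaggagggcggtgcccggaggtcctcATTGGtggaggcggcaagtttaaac
DEPDC1 (chr1:68497083-68497232, minus strand): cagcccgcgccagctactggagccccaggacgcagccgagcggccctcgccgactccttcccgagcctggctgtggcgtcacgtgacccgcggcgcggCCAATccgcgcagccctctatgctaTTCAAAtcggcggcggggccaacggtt
CCNB2 (chr15:59104996-59105145, plus strand): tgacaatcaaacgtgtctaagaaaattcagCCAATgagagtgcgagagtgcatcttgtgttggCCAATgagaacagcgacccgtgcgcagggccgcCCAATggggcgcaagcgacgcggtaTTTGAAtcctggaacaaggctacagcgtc
KIF20A (chr5:138178962-138179111, plus strand): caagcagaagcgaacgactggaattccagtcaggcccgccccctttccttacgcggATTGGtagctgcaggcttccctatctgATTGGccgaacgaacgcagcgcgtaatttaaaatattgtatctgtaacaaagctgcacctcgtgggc
UHRF1 (chr19:4909351-4909500, plus strand): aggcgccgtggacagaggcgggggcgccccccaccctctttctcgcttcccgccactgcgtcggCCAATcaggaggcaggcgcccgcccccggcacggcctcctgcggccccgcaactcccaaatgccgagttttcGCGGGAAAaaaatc
RFC3 (chr13:33817999-33818148, plus strand): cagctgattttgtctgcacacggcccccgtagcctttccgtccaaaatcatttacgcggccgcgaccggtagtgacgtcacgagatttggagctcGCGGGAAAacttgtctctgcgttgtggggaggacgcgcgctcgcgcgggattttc
GDF15 (chr19:18386008-18386157, plus strand): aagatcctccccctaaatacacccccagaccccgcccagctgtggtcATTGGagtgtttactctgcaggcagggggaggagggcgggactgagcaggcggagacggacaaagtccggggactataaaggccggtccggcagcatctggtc
BTG2 (chr1:203305369-203305518, plus strand): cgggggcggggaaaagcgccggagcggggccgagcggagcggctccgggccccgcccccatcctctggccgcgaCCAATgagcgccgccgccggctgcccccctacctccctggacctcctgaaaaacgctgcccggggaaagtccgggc

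A CHR was present in 30 of the 46 promoters of genes that fell by more than 1 (65.2%), in 1737 of all 13964 promoters (12.4%) and in 0 of 11 promoters of genes that rose by more than 1. In the 5 mitotic lists it was present in 53 of 77 promoters (68.8%). A CCAAT box was in 63.0% of the promoters of the falls, in 7 of 11 promoters of the rises and in 36.2% of all promoters, and both motifs together were in 52.2% of the falls and 5.08% of all promoters. CHR matches in the falls numbered 39, of which 21 began within 100 bases before the start and 10 after it, with the median at -23. In PLK1 and CCNB2 the CHR began at -29, where the base before the start is -1, and in PLK1 a CCAAT box began at -73. EGR1 also held a CHR at -29. A full p53 element was found in 3 of 13964 promoters and in none of the 11 promoters of the rises, in a window that does not reach the introns and distant sites of these genes. A match describes the letters of a promoter, and binding was not measured.

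**Figure D3:**
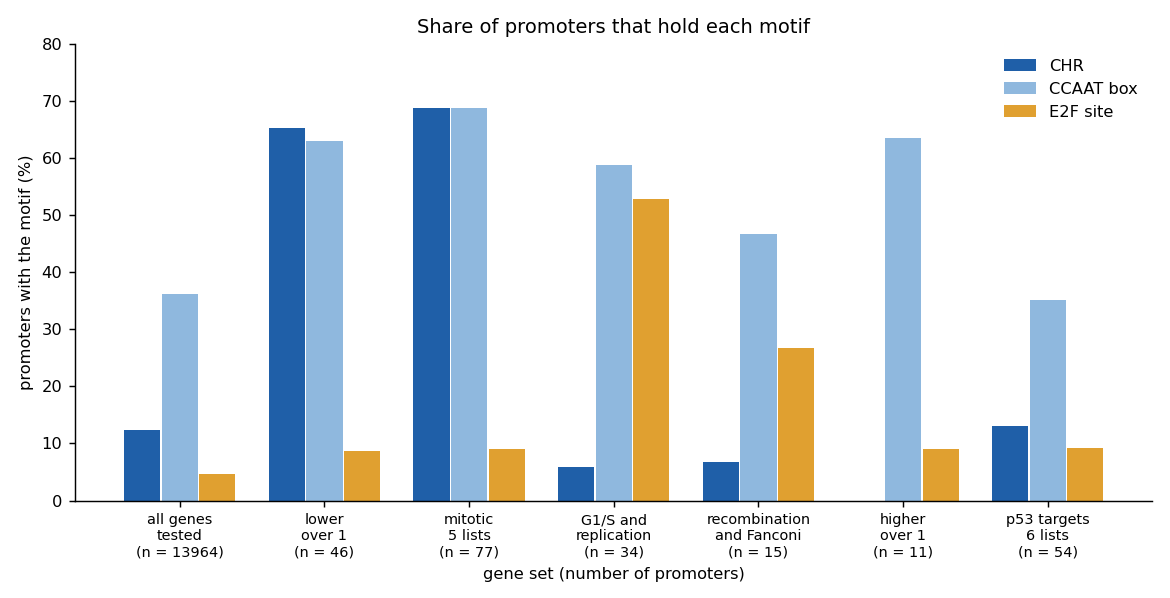
Percentage of promoters that hold a CHR, a CCAAT box or an E2F site (y axis) in each gene set (x axis, with the number of promoters). The CHR is most frequent in the genes that fell by more than 1 and in the mitotic lists (65.2% and 68.8%, against 12.4% of all), and the E2F site in G1/S and replication genes (52.9%, against 4.65%).

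Genes of the G1/S transition and of replication fell as well. Of 41 genes, 35 were lower (background 13.3%) and 2 higher (10.5%), with a median of -0.410 and no fall over 1. The largest falls were those of the cyclin CCNE2, at 7.27, 7.53 and 7.29 against 8.37, 8.33 and 8.25 (-0.95, SE 0.052, adjusted p = 2.16e-10), and of the replicative helicase subunit MCM3, at 10.42, 10.48 and 10.55 against 11.34, 11.46 and 11.45 (-0.94, SE 0.045, adjusted p = 4.98e-11). UHRF1, which maintains DNA methylation (-0.93), and the helicase subunit MCM4 (-0.69) followed. The 2 genes that rose were PCNA, the polymerase clamp and a p53 target (11.71, 11.72 and 11.70 against 11.38, 11.43 and 11.39, 0.31, SE 0.042, adjusted p = 1.3e-05), and the cyclin CCND1 (0.13). TK1 (-0.08, adjusted p = 0.361), TYMS, GINS4 and LIG1 did not pass.

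A CHR was in 2 of 34 promoters of G1/S and replication genes (5.88%). E2F sites were in 18 of these 34 (52.9%), in 7 of 77 promoters of the mitotic lists (9.09%) and in 650 of all promoters (4.65%). Matches of the CHR and the E2F site overlapped in 0 promoters, those of the CHR and the CCAAT box in 10 and those of the CCAAT box and the E2F site in 4.

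Of the cell cycle transcription factors, 12 of 13 fell. E2F2 was the lowest (5.13, 5.30 and 5.22 against 6.23, 6.44 and 6.11, -1.04, SE 0.084, adjusted p = 2.91e-08), followed by the MuvB subunit LIN9 (-0.57), FOXM1, an activator of mitotic genes (-0.52), and E2F1 (-0.50). The repressors of the DREAM complex fell as well, RBL2 or p130 (-0.33) and E2F4 (-0.15) among them.

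Genes of homologous recombination and of the Fanconi pathway, which repair breaks in S and G2, fell in 16 of 17 cases (median -0.360). These included the helicase BLM (8.37, 8.49 and 8.38 against 8.92, 8.92 and 8.86, -0.48, SE 0.071, adjusted p = 3.92e-05), BRCA1 (-0.33) and BRCA2 (-0.36), and PALB2 (-0.12, adjusted p = 0.0538) did not pass. Of 14 genes of end joining and break sensing, 7 fell and none rose, with a median of -0.0902. The largest were MRE11A, a nuclease of the break sensor (-0.33), the mediator MDC1 (-0.32) and the ligase partner XRCC4 (-0.26), and the kinase ATM differed by -0.09 (adjusted p = 0.211). Of 19 histone genes 4 rose (background 10.5%), led by HIST2H2BE (0.28) and HIST1H2BD (0.27), and none fell (13.3%). Without the first untreated or the first NCS library 2 rose, and only 6 of the 19 had a mean value of at least 5. Transcripts of these genes mostly lack the poly(A) tail that an mRNA library selects.

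Immediate-early genes moved in both directions, with 7 of 20 higher (background 10.5%) and 5 lower (13.3%). ATF3 had 9.89, 9.81 and 9.86 against 8.24, 8.22 and 8.19 (1.64, SE 0.052, adjusted p = 3.61e-13), and NR4A1 (0.40) and IER3 (0.41) rose less. FOS, a partner of JUN in AP-1, was 5.98, 5.85 and 5.86 against 6.82, 6.93 and 6.89 (-0.99, SE 0.080, adjusted p = 2.76e-08), and JUN differed by 0.08 (adjusted p = 0.43). Of 15 EGF receptor ligands and ERK feedback genes 4 were higher and 5 lower (16.7% and 21.9% of genes with a mean value of at least 5). The phosphatase DUSP4 (0.50) and the ligand HBEGF (0.34) lay above, and the factors ETV4 (-0.31) and ETV5 (-0.31) below untreated cells. The untreated cells were harvested at 0 h, and the part of 8 h in fresh medium with EGF in these genes cannot be told apart from that of NCS.

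In the integrated stress response 6 of 12 rose and none fell (median 0.220), led by DDIT3 (CHOP) with 9.31, 9.31 and 9.42 against 8.53, 8.43 and 8.57 (0.83, SE 0.068, adjusted p = 3.08e-08) and CHAC1, a glutathione-degrading enzyme (0.80, SE 0.10, adjusted p = 7.67e-06). Its transcription factor ATF4 differed by -0.04 (adjusted p = 0.743). Of 11 targets of NRF2, the oxidative stress factor, 3 rose (16.7% of genes with a mean value of at least 5 did). OSGIN1 (0.48) and heme oxygenase HMOX1 (0.45) were ahead, and NQO1 (0.03, adjusted p = 0.675) did not pass. NF-kB targets and cytokines rose in 7 of 17 cases, with the subunit RELB (0.61), the apoptosis inhibitor BIRC3 (0.50) and TNFAIP3 (0.44), and 1 fell, NFKB1 (-0.14). Interferon-stimulated genes rose in 3 of 14 cases, near the share of genes with a mean value of at least 5 (16.7%), IRF7 the most (0.37).

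Among 12 YAP and TGF-beta matrix genes 2 rose and 3 fell, near the shares of genes with a mean value of at least 5 (16.7% and 21.9%). TGFB2 (-0.26), CYR61 (-0.26) and CTGF (-0.23) were lower and EDN1 (0.27) and ANKRD1 (0.25) higher. Of 4 ID proteins ID2 fell (-0.36) and ID3 rose (0.14), a call lost without the first untreated or the second NCS library. Of 6 fibroblast markers 2 fell (21.9% of genes with a mean value of at least 5 did), too few markers to set apart from that share. These were PDGFRB (-0.38) and DCN (-0.06, not passed without untreated replicate 1 or NCS replicate 1 or 3). TERT, which the line carries as a transgene, was 14.08, 14.05 and 14.06 against 14.21, 14.37 and 14.31 (-0.24, SE 0.034, adjusted p = 3.7e-05).

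To place 8 h within the course of the response, it was compared directly with 4 h and 24 h of NCS. Between 4 and 8 h, 1213 genes (6.16%) were higher at 8 h and 1477 (7.5%) lower, and 3 genes (0.0152%) passed the limit of 1, all lower: KIF20A (-1.20), CCNE2 (-1.08) and CDCA7 (-1.08). No gene was higher at 8 h by more than 1 at any p-value, and the largest difference was that of CHAC1 (0.92). Against 24 h, 2953 genes (15%) were higher at 8 h and 2930 (14.9%) lower, and 71 (0.361%) and 2 (0.0102%) passed the limit. All of these contrasts share the NCS 8 h libraries.

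Most replication genes fell between 4 and 8 h. Of the 41, 40 were lower at 8 h than at 4 h (background 7.5%; CCND1 was higher), with a median of -0.394, and 39 were higher than at 24 h (background 15%), with a median of 0.865. MCM3 stood at 11.26, 11.29 and 11.27 after 4 h, 10.42, 10.48 and 10.55 after 8 h and 9.67, 9.72 and 9.85 after 24 h. CCNE2 libraries held 8.47, 8.43 and 8.44 after 4 h, 7.27, 7.53 and 7.29 after 8 h and 6.43, 6.48 and 6.39 after 24 h, and the 3 times did not overlap in either gene. Relative to untreated cells the 4 h difference of MCM3 was -0.14 (adjusted p = 0.0354) and that of CCNE2 0.13 (adjusted p = 0.104). Of 17 recombination genes 14 were lower at 8 h than at 4 h (background 7.5%).

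Some mitotic genes fell further between 4 and 8 h, and for others no difference passed. Of the 88 genes, 38 were lower at 8 h than at 4 h (background 7.5%), 1 was higher (6.16%), and the median was -0.191. AURKA stood at 9.36, 9.33 and 9.32 at 4 h and 9.49, 9.46 and 9.44 at 8 h (0.13, adjusted p = 0.569 in limma). Its 8 h libraries all lay above its 4 h libraries. The spread of each gene was estimated over all 21 libraries, the outlying H2O2 library among them. These adjusted p-values therefore do not measure the spread of the 4 h and 8 h libraries alone, and a gene that did not pass may still differ. ASPM (0.03, adjusted p = 0.984), CENPF (-0.13, adjusted p = 0.456) and CDCA8 (-0.05, adjusted p = 0.9) did not pass either. KIF20A went from 10.59, 10.61 and 10.57 at 4 h to 9.31, 9.40 and 9.45 at 8 h, and PLK1 from 10.51, 10.62 and 10.43 to 9.67, 9.66 and 9.73 (-0.83). At 24 h 84 of the 88 were lower still, with a median difference of 0.839 between 8 and 24 h; the largest was MKI67, at 11.72, 11.74 and 11.77 and 10.13, 10.24 and 10.30 (1.52).

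Of the 70 p53 targets, 10 were higher (background 6.16%) and 17 lower (7.5%) at 8 h than at 4 h. Against 24 h, 27 were higher (background 15%) and 13 lower (14.9%). MDM2 was 13.21, 13.30 and 13.25 at 4 h, above its 8 h values (difference -0.43, adjusted p = 4.39e-05), and BBC3 (-0.31) and PLK2 (-0.38) were also lower at 8 h. FDXR (0.25), DDB2 (0.23) and BAX (0.13) were higher at 8 h than at 4 h and also than at 24 h (0.29, 0.13 and 0.23). PAPPA rose through the course, from 12.06, 12.13 and 12.20 after 4 h to 12.65, 12.63 and 12.65 after 8 h and 13.23, 13.21 and 13.29 after 24 h. The integrated stress response was higher at 8 h than at 4 h in 9 of 12 genes (background 6.16%), with CHAC1 at 8.71, 8.58 and 8.79 and 9.59, 9.62 and 9.62 and DDIT3 up by 0.64.

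**Figure D4:**
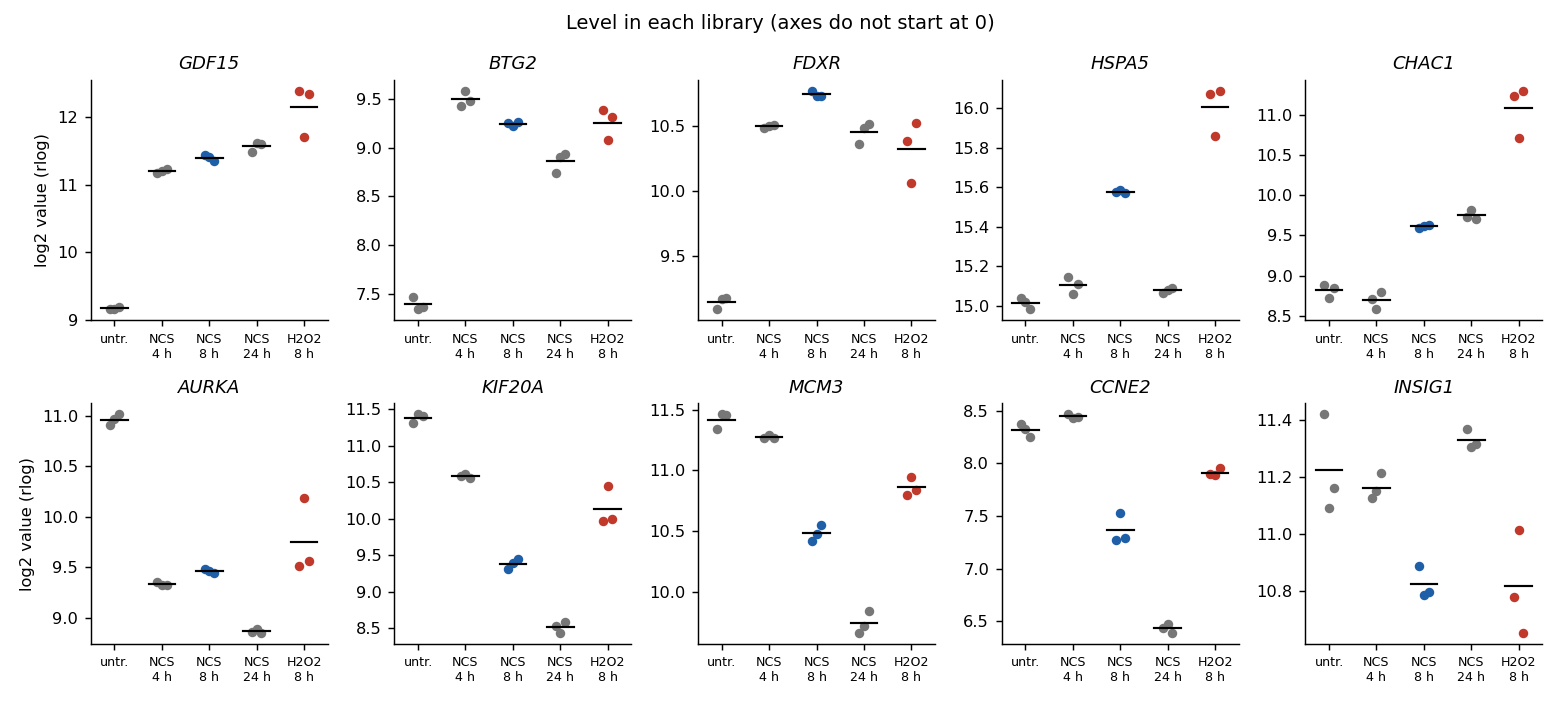
Log2 value (y axis, rlog; axes do not start at 0) of 10 genes in each library of untreated cells, of NCS at 4, 8 and 24 h and of H2O2 at 8 h (x axis); points are libraries and bars means. NCS 8 h is blue: MCM3 and CCNE2 lie lower at 8 h than at 4 h, AURKA lies below untreated cells at both times, and HSPA5 and INSIG1 lie above or below both neighboring NCS times.

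A small set of genes was highest or lowest at 8 h among the 3 NCS times. Higher at 8 h than at both 4 and 24 h were 0.894% of the genes tested, and 0.721% were lower than both. HSPA5 (BiP), the main chaperone of the endoplasmic reticulum, led the first set, with 15.57, 15.59 and 15.57 after 8 h, 15.14, 15.06 and 15.11 after 4 h and 15.06, 15.08 and 15.09 after 24 h, and the untreated libraries lay at 15.04, 15.02 and 14.98. The ER genes HERPUD1, DNAJB9, SDF2L1 and XBP1, the last a transcription factor, of the same list of 12 were also in this set. Outside the lists MANF and HYOU1 were too (0.32 and 0.33 above 4 h, 0.66 and 0.42 above 24 h). The 7 cytosolic heat shock members of the list were not, a split made after the values were seen, and HSPA1B was lower at 8 h than at 4 h (-0.48). INSIG1, a regulator of sterol synthesis, was in the second set, with 10.89, 10.79 and 10.79 after 8 h, 11.12, 11.15 and 11.21 after 4 h and 11.37, 11.30 and 11.32 after 24 h. It differed by -0.34 from 4 h and -0.51 from 24 h, the desaturase SCD by -0.33 and -0.50, and SREBF2 by -0.14 and -0.18. Against untreated cells 5 of the 12 heat shock and ER chaperone genes rose and 1 fell (HSPA8, -0.11), and of 11 sterol genes 6 fell and 1 rose (STARD4, 0.18). The 6 became 3 without the first untreated or the second NCS library and 2 with only the groups compared, and the calls of HSPA8 (without any 1 of the 6 libraries) and of STARD4 (without the second untreated or the first NCS library) were lost.

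Compared directly with H2O2 at 8 h, 3042 genes (15.4%) were higher in NCS and 3679 (18.7%) lower. The limit of 1 was passed by 1 gene above (0.00508%) and 31 below (0.157%), and by 5 and 40 without the second H2O2 replicate. Among the genes lower in NCS than in H2O2, HMOX1 had 10.21, 10.14 and 10.23 against 12.29, 12.08 and 12.36 (-2.05, SE 0.055, adjusted p = 6.43e-14; -2.13 without the second replicate), and the chaperone HSPA6 (-2.13, and -2.35 without it), FOSB (-1.85, and -1.80 without it) and the glycine transporter SLC6A9 (-1.78, and -1.90 without it) were lower too. Relative to untreated cells, HSPA6 (0.17, adjusted p = 0.432), FOSB and SLC6A9 did not pass in NCS. On the side of NCS the galactosyltransferase B3GALT2 led, with 8.54, 8.51 and 8.46 against 7.19, 7.76 and 7.34 (1.07, and 1.24 without it), followed by the transcription factor IKZF2 (0.98, and 1.12 without it), LOC100505678 (0.95, and 1.14 without it), LRRN3 (0.95, and 1.04 without it) and the channel TRPC6 (0.94, and 1.04 without it). Relative to untreated cells B3GALT2 differed by -0.36 in NCS (adjusted p = 0.009, and 0.0529 without the first untreated library) and by -1.43 in H2O2.

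The counts of mitotic genes turned on the second H2O2 replicate. With it, 28 of 88 mitotic genes were lower in NCS (background 18.7%) and 3 higher (15.4%), with a median of -0.0968; without it 18 were lower and 18 higher (backgrounds 20% and 16%), with a median of 0.0282. PLK1 was 9.67, 9.66 and 9.73 in NCS and 10.20, 10.84 and 10.33 in H2O2 (-0.77, and -0.58 without that library), and KIF20A differed by -0.76 and -0.60. The difference in AURKA passed only with the library (-0.29, adjusted p = 0.0427, against -0.08, adjusted p = 0.0851). Of the 70 p53 targets 18 were higher (background 15.4%) and 22 lower (18.7%) in NCS, with a median of -0.0259. Without the library these were 15 and 32 (backgrounds 16% and 20%), with a median of -0.0695. SESN2 (-0.97, -1.09 without), GDF15 (-0.75, -0.97 without) and PMAIP1 (-0.64, -0.71 without) were lower in NCS. DDB2 (0.49, 0.47 without), FDXR (0.42, 0.29 without) and LIF (0.36, 0.36 without) were higher.

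**Figure D5:**
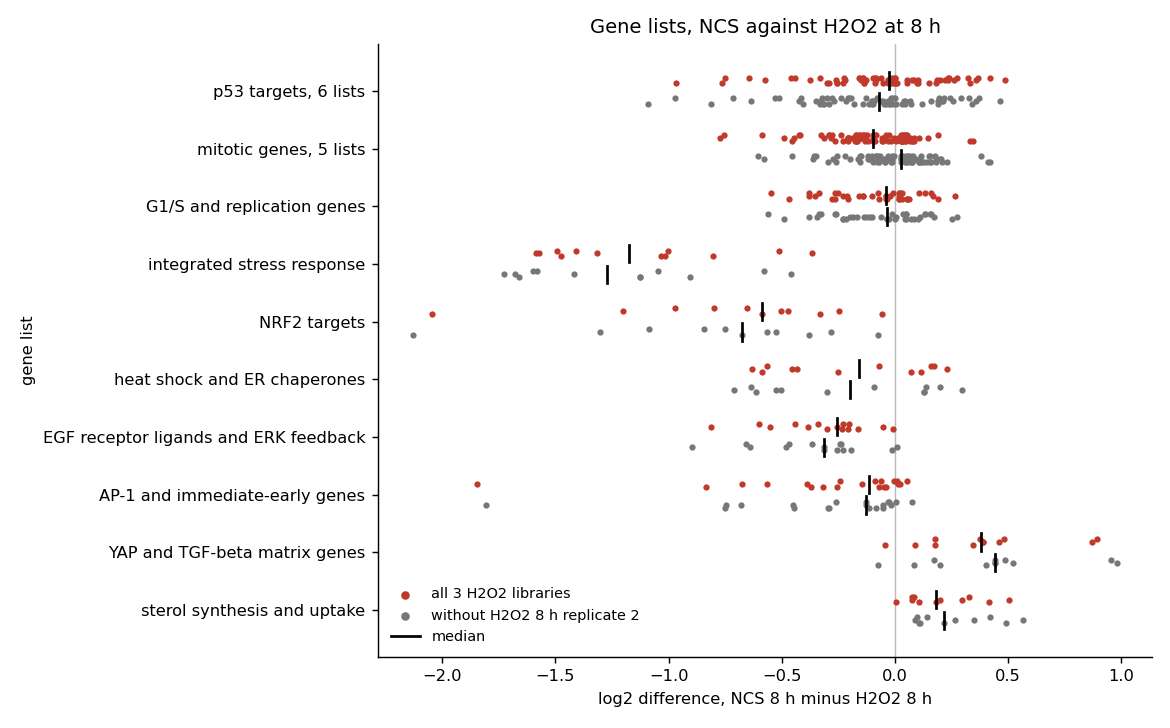
Log2 difference between NCS and H2O2 at 8 h (x axis) for the members of 10 groups of genes (y axis), with all 3 H2O2 libraries (red) and without the second H2O2 replicate (gray); bars are medians. The integrated stress response and NRF2 targets lie below 0 in both, YAP and TGF-beta matrix genes mostly above 0, and the median of the mitotic genes is -0.0968 with the library and 0.0282 without it.

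All 12 genes of the integrated stress response were lower in NCS than in H2O2 (background 18.7%; median -1.17, and -1.27 without the second H2O2 replicate), with CHAC1 at 9.59, 9.62 and 9.62 against 11.24, 10.72 and 11.31 (-1.48, and -1.66 without it) and ATF4 at 12.76, 12.72 and 12.76 against 13.87, 13.54 and 13.88 (-1.01, and -1.13 without it). All 11 NRF2 targets were lower too (median -0.587, and -0.677 without it), among them the thioredoxin reductase TXNRD1 (-1.20, and -1.30 without it). Of the EGF receptor ligands and ERK feedback genes 13 of 15 were lower in NCS (14 without the library), led by ETV5 (-0.81, and -0.90 without it). Of 12 YAP and TGF-beta matrix genes 11 were higher in NCS (background 15.4%; also 11 without the library, where AMOTL2 was lower, -0.07 with adjusted p = 0.0106), led by endothelin EDN1 (0.89, and 0.96 without it) and thrombospondin THBS1 (16.48, 16.50 and 16.54 against 15.53, 15.85 and 15.52, a difference of 0.87, and 0.98 without it). Sterol genes were higher in 7 of 11 cases (9 without the library), led by STARD4 (0.51, and 0.57 without it). The ER genes HSPA5 (-0.43, and -0.50 without it), DNAJB9 (-0.59, and -0.61 without it), XBP1 (-0.45, and -0.52 without it) and HERPUD1 (-0.56, and -0.64 without it) were lower in NCS than in H2O2, and SDF2L1 (0.16, adjusted p = 0.0586) did not pass.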

How the data were processed

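RNA of hTERT-HPNE cells was sequenced from poly(A) libraries (paired-end reads of 150 bases). The authors aligned reads with HISAT2, counted them with htseq-count and made the deposited log2 values with the rlog transformation of DESeq2, in 1 table of 21 libraries, and the submitters' processing notes name hg19; versions are not given in the sources used here. The rlog shrinks differences, so log2 differences are smaller than those of counts, most for low genes. Depth is unknown, and no counting intervals were computed.

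The values were used as deposited. Of 23368 genes, 3674 with the same value in every library were left out, and 27 gene names read as dates. limma 3.58.1 (R 4.3.3) fitted the 7 groups of 3 libraries together, with a mean-variance trend, and p-values were adjusted by Benjamini-Hochberg over 19694 genes; it was tested on simulated data. Genes over 1 in absolute log2 difference with an adjusted p-value under 0.05 were counted, and list members by the adjusted p-value alone. The members and gene lists were chosen with earlier results of these data known. Named genes are the 15 largest rises and falls, the 5 largest in each direction of each direct contrast (both with libraries of the groups that do not overlap) and list members. Up to 4 members a list, those with the largest differences, and the best known member follow that rule; further list members and MANF, HYOU1, SCD and CDCA3 were named after their values were seen. Alternatives were other normalizations, a mean of at least 5, other limits, only the groups compared, no trend, a replicate block and leaving out each library. Some genes are not reported here.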

Additional observations from a re-analysis of the deposited data

Results flagged for a closer look

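Differences between NCS and H2O2 at 8 h and between NCS times were tested directly. NCS 8 h had 1 gene above and 31 below H2O2 8 h, 0 above and 3 below NCS 4 h (limma; 1213 higher at an adjusted p-value under 0.05), and 71 above and 2 below NCS 24 h. Relative to H2O2 at 8 h the 5 largest differences toward NCS were those of B3GALT2 (1.07), IKZF2 (0.98), LOC100505678 (0.95), LRRN3 (0.95) and TRPC6 (0.94). Among those lower in NCS were HSPA6 (-2.13), HMOX1 (-2.05), FOSB (-1.85) and SLC6A9 (-1.78). Without the second H2O2 replicate, the values ranged from 1.04 to 1.24 for the former and from -2.35 to -1.80 for the latter, so that all 5 of the former lay over 1. LRRN3 was the only one of the former that was above untreated cells in NCS (0.23, adjusted p = 0.00216).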

How the results depend on the processing

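Counts of genes past the limit of 1 stayed within 1.5 times of 67 (NCS 8 h and untreated) with library medians aligned (71, of which 66 shared), quantile normalization (66, 65 shared), no mean-variance trend, only the groups compared and a mean of at least 5 (67 each, all shared). With a limit of 0.58 they were 254 in all, 87 higher and 167 lower, and with the adjusted p-value alone 4703, 2074 and 2629. Against H2O2 8 h these 2 settings gave 181 and 6721, against NCS 4 h 29 and 2690, and against NCS 24 h 341 and 5883. Leaving out each library gave 63 to 76 in all, 11 to 15 higher and 52 to 61 lower, 26 to 45 against H2O2 8 h, 3 to 3 against NCS 4 h and 67 to 82 against NCS 24 h. Replicate numbers did not consistently pair NCS 8 h and untreated libraries, with correlations of deviations of same-numbered libraries of 0.0912, -0.0486 and 0.213. The first NCS library correlated best with the second untreated one (0.0959). Same-numbered NCS and H2O2 libraries at 8 h correlated more (0.192, 0.0381 and 0.189) than those of different numbers (-0.182 to -0.00074). Same-numbered libraries of NCS at 8 and 24 h gave 0.0803, 0.0197 and 0.165, and those of NCS at 8 and 4 h -0.0845, 0.0416 and -0.0734. A replicate block gave 67 genes against untreated cells, all shared, and 32 against H2O2 8 h, as in the main fit. Of 1152 values of single genes under the alternatives 1144 kept direction and call. These values come from 96 single-gene results, and the changes that follow are those among them. List members whose calls were lost, such as BTG1, CD68, ID3, DCN, HSPA8 and STARD4, are given above and were not counted here. Without each replicate in turn LOC100505678 ranged from -0.033 to 0.0014 and ABCA1 from -0.049 to 0.12 against untreated cells, both turning sign without the second untreated replicate and neither called. The other changes were in the difference from untreated cells of B3GALT2 (-0.30, adjusted p = 0.0529 in limma without the first untreated replicate), of SCD (adjusted p = 0.0544 to 0.129 in 3 settings, with only the groups compared and without the first untreated or the second NCS library), of MTMR4 (0.0532 with only the groups compared) and of TRPC6, which passed with medians aligned (0.0175); the cause was not tested. Of 792 list counts 56 moved by more than 1.5 times. In the 100 bases before the start alone, a CHR was in 34.8% of the promoters of falls and 3.21% of all. Depth is unknown, which limits statements on low genes.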
